A study of Homo sapiens with 64 samples.

Results

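PCNA binding was followed through the cell cycle in shTUBG U2OS cells, in the 4 peak lists made with a PCNA antibody from cells left asynchronous and from cells that had left a double thymidine block 3, 7 or 9 h earlier. The members are all peaks of these lists, 318 of the 2442 peaks in the 24 lists of the series, and they stand for 8 of its 64 samples. U2OS is an established human osteosarcoma cell line, and shTUBG U2OS cells stably express an shRNA against TUBG that lowers the level of γ-tubulin. All 4 groups carry this shRNA, so none is a control for it, and the knockdown cannot be checked from peak lists. The double thymidine block arrests cells in early S phase, and the study treats 3 h as S phase, 7 h as the passage from S phase to G2/M and 9 h as G2/M. The study also refers to an earlier report that S phase is delayed when γ-tubulin is lowered, so these phases may not hold for this line. The phase of the cells cannot be read from peak lists. Chromatin was digested with micrococcal nuclease before immunoprecipitation.

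PCNA is the sliding clamp of DNA replication. Its identical subunits close around DNA, the clamp loader RFC places the ring at primer ends, and the ring holds DNA polymerases on the template. It also recruits the enzymes that join Okazaki fragments and assemble chromatin, and during S phase it gathers at replication foci that move from early to late replicating DNA. Chromatin next to centromeres is rich in satellite repeats, and much of it is replicated late.

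Each time had 2 labelled samples that share 1 list, so replicate error is unknown for every value and no p-value is given. Shares of peaks carry 95% Clopper-Pearson intervals, which cover counting error only, and peaks lie in clusters and are not independent. Read depth is unknown, so a change in binding and a change in depth or in the calling of peaks cannot be told apart in any count or width below. Coordinates are those of the human assembly hg19, counted from 1. Peaks were sorted by position into 4 kinds of sequence, which were the mitochondrial genome, scaffolds that have no place or no fixed position on a chromosome, pericentromeres, meaning within 2 Mb of the centromere gap of the assembly or of the heterochromatin joined to it, and the rest of the chromosomes, called arms.

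The number of PCNA peaks was lowest at 7 h and highest at 9 h. Asynchronous cells had 87 peaks, the 3 h list 51, the 7 h list 25 and the 9 h list 155. The bases covered by peaks followed the same order, at 43.3 kb for the asynchronous list and then 24.7, 8.88 and 85.6 kb for 3, 7 and 9 h. In the same order of times, peaks were spread over 17, 14, 8 and 20 chromosomes or scaffolds. In U2OS, PCNA peaks were also fewest at 7 h and most at 9 h, at 118, 104, 17 and 130. They covered 60.6, 59.8, 7.97 and 73.9 kb. The same order of lowest and highest count held for γ-tubulin and FoxM1 in U2OS. Mcm5 peaks in U2OS were fewest at 7 h but most at 3 h (132). For γ-tubulin in shTUBG U2OS they were fewest at 3 h (33) and most in asynchronous cells (94).

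Most of the PCNA peaks lay next to centromeres. Of the 318 peaks, 217 (68.2%, 62.8 to 73.3%) were pericentromeric, 43 lay on scaffolds, 33 on the mitochondrial genome and 25 on arms. Over all 24 lists 52.2% of peaks were pericentromeric and 18.7% lay on arms. The pericentromeric share was 57.5% in the PCNA lists of U2OS and 14.0% in the γ-tubulin lists of shTUBG U2OS.

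The makeup of the lists changed with time, and the mitochondrial and pericentromeric peaks changed in different ways. Pericentromeric peaks numbered 45, 36, 15 and 121 in the asynchronous, 3 h, 7 h and 9 h lists. Their share was 51.7% (40.8 to 62.6%) in asynchronous cells and 78.1% (70.7 to 84.3%) at 9 h. The intervals did not overlap, but they treat clustered peaks of 1 list each as independent, so they do not test this contrast. Among the peaks of each list whose score reached its median, this contrast was smaller, at 70.5% in asynchronous cells and 75.9% at 9 h, and the shares at 3 h (96.2%) and 7 h (84.6%) were above that at 9 h. At 3 h the share was 70.6% (56.2 to 82.5%) and at 7 h 60% (38.7 to 78.9%), and both intervals overlapped those of the other times. Mitochondrial peaks numbered 17, 7, 8 and 1 in the same order, so the list with the most peaks had the fewest on the mitochondrial genome. Without them, pericentromeric peaks were 45 of 70, 36 of 44, 15 of 17 and 121 of 154. By these counts the 9 h share was above that of asynchronous cells but below those at 3 and 7 h. Scaffold peaks numbered 15, 4, 2 and 22, and arm peaks 10, 4, 0 and 11. No arm peak was among the 25 peaks at 7 h, for which the upper bound of the interval is 13.7%.

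**Figure D1:**
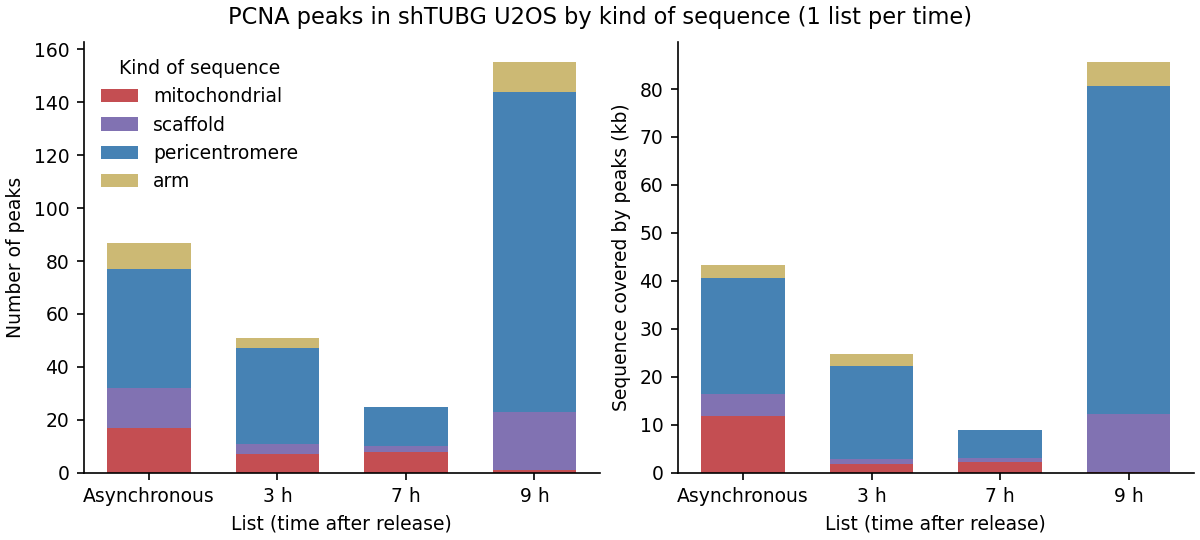
Number of PCNA peaks in each of the 4 lists of shTUBG U2OS cells, with bars divided by the kind of sequence on which the peaks lie. The 9 h list is the tallest with 155 peaks, of which 121 are pericentromeric, and it holds 1 mitochondrial peak against 17 in asynchronous cells.

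To follow positions through time, all peaks of the 4 lists sharing 1 bp or more were joined. This gave 186 regions, of which 122 were pericentromeric, 29 on scaffolds, 18 on arms and 17 on the mitochondrial genome. The asynchronous list accounted for 72 of these regions, the 3 h list for 38, the 7 h list for 19 and the 9 h list for 155.

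Outside the mitochondrial genome, most regions of a shorter list were also called in each longer list, down to 41 of 55 for asynchronous cells at 9 h. Counted as peaks with 1 bp of overlap, 100% at 7 h and 94.1% at 3 h were found in asynchronous cells. Over all 6 series these shares were 81.4 and 61.4%. At 9 h, 84.3% of 3 h peaks and 65.5% of asynchronous peaks were found, against 83.7 and 74.4% over all series. All 19 regions of the 7 h list were also called in asynchronous cells, so no region was called at 7 h alone. Of the 38 regions at 3 h, 3 were missing from asynchronous cells and 8 were missing at 9 h. Of those 8 regions, 7 were mitochondrial and 1 lay on an arm. Of the 72 regions in asynchronous cells, 30 were missing at 9 h, and these were 16 mitochondrial, 7 scaffold, 6 arm and 1 pericentromeric regions. The 3 h list had 1 region of its own, chr17:40766785-40766999 with a peak of 215 bp at percentile rank 29.4 of the scores in its list. It was also called for Mcm5 in U2OS at 7 h and for γ-tubulin in asynchronous shTUBG U2OS cells.

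The most common pattern was a region called at 9 h alone. This held for 111 regions (59.7%), of which 90 were pericentromeric, 13 on scaffolds and 8 on arms. Among the regions merged in the same way in each of the 6 series of antibody and cell line, 27.5% were called at 9 h alone. Such a share depends on list length, and 155 of the 186 regions were called at 9 h, against 38 at 3 h and 19 at 7 h. A further 18 regions were called in asynchronous cells alone, and these were 7 mitochondrial, 5 scaffold and 6 arm regions, with no pericentromeric region among them. The next most common pattern, with 19 regions, was a call at every time except 7 h.

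A set of 9 regions (4.84%) was called at every time, against 13.0% of regions over all 6 series. All 9 were pericentromeric. They were 1 region at the centromere edge of chromosome 1 (chr1:121484029-121485480), 5 on chromosome 10, and 1 each on chromosome 2 (chr2:92268985-92269920), chromosome 7 (chr7:61968562-61969753) and chromosome 19 (chr19:27731879-27732871). The 5 on chromosome 10 were chr10:42384073-42386710, chr10:42386852-42389942, chr10:42395667-42397102, chr10:42400114-42400766 and chr10:42596718-42600534. These 9 regions held 29.5% of the bases covered in the asynchronous list, and 48.7, 60.6 and 18.9% of those at 3, 7 and 9 h.

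The chromosome 1 region was the peak of highest score in each list, alone or tied. Its width was 1392 bp in asynchronous cells and 1388, 1086 and 1452 bp at 3, 7 and 9 h, with the narrowest call at 7 h and the widest at 9 h. The unit of the score was not stated, so its level was not compared between lists.

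On chromosomes 2, 7 and 19 the calls were also narrowest at 7 h. The chromosome 2 peak measured 836 bp in asynchronous cells and 753, 252 and 936 bp at 3, 7 and 9 h. On chromosome 7 the widths were 1008, 1012, 787 and 1192 bp in the same order, and on chromosome 19 they were 572, 522, 357 and 993 bp. In all 3 regions the 9 h call was the widest.

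On chromosome 10, peaks that were separate in other lists were 1 peak at 9 h. In chr10:42596718-42600534, asynchronous cells had 5 peaks that covered 2974 bp. The synchronised lists had 5 over 2882 bp at 3 h, 2 over 883 bp at 7 h and 1 of 3817 bp at 9 h. A neighbouring region, chr10:42390575-42395134, had 6 peaks over 3610 bp in the asynchronous list, 6 over 3466 bp in the 3 h list, none at 7 h and 1 of 4560 bp at 9 h. That peak was the widest of the 318, and the region is the one with the most peaks among those missing at 1 time.

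Widths were also compared over all regions shared by a pair of times outside the mitochondrial genome, and the 9 h calls were the wider ones in each comparison that included them. The 9 h calls were wider than those of asynchronous cells in 41 of 41 regions, with a median ratio of 1.60 (1.04 to 6.04). They were wider than the 3 h calls in 30 of 30 regions, with a median ratio of 1.64, and wider than the 7 h calls in 9 of 9, with a median ratio of 3.54. The 7 h calls were narrower than the 3 h calls in 9 of 9 regions, with a median ratio of 0.399. Against asynchronous cells the 7 h calls were narrower in 9 of 12 regions and wider in 3, with a median ratio of 0.536 (0.238 to 2.04). Calls at 3 h were narrower than those of asynchronous cells in 24 of 28 regions, and the median ratio of 0.926 was closer to 1. This comparison was not made in the other series, so whether the wider 9 h calls are particular to this part was not tested. In U2OS the widest peak also lay at 9 h for PCNA (4515 bp), γ-tubulin (8301 bp), Mcm5 (10323 bp) and FoxM1 (7122 bp). For γ-tubulin in shTUBG U2OS it lay in asynchronous cells (4112 bp).

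The median width of single peaks did not follow this order. It was 365, 326, 277 and 358 bp in the order of the times. The 9 h list joined wide and narrow peaks, with a median of 1436 bp in the regions called at every time and 318 bp in the regions called at 9 h alone.

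How much of a list was found at another time depended on the overlap asked for. With at least 25% of both peaks shared, which is the rule of the study, 43 of 87 peaks of asynchronous cells (49.4%, 38.5 to 60.4%) were found at 3 h, against 60.2% over all 6 series. At 9 h, 39 of the 87 (44.8%) were found, against 57.8%. In the reverse direction 38 of 155 peaks at 9 h (24.5%) were found in asynchronous cells, against 40.9% over all series. That share is limited by the 87 peaks of the asynchronous list.

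Peaks of the 3 h list were found more often in asynchronous cells than at 9 h under this rule. Of the 51 peaks, 43 (84.3%) were found in asynchronous cells, against 57.2% over all series, and 25 (49.0%) at 9 h, against 76.9%. Overlap by 1 bp was met at 9 h by 43 of the 51 (84.3%), against 83.7%. Without mitochondrial peaks it was met by 43 of 44 (97.7%). In bases, 99.1% of the sequence covered at 3 h outside the mitochondrial genome lay inside a 9 h peak.

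How the 7 h list compared with the asynchronous and 3 h lists depended on the rule. Of its 25 peaks, 20 (80%) met the 25% rule there, against 72.0% over all series, 14 (56%) met it at 3 h, against 64.6%, and 6 (24%) at 9 h, against 58.2%. With 50% of both peaks shared the order of the first 2 turned, with 28% found in asynchronous cells and 36% at 3 h, as it did with peaks within 1000 bp merged, with 26.3% and 31.6%. Overlap by 1 bp with a 9 h peak was met by 14 (56%), against 78.5%. Of the 9 regions at 7 h that were not called at 9 h, 6 were mitochondrial, 2 lay on a scaffold and 1 was pericentromeric. Outside the mitochondrial genome, 91.4% of the bases covered at 7 h lay in a peak of asynchronous cells and 81.3% in a 9 h peak.

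Few of the peaks at 9 h were found at the times just before. Of the 155 peaks, 25 (16.1%) met the 25% rule at 3 h, against 55.5% over all series, and 6 (3.87%) at 7 h, against 21.2%. These shares are limited by list length, since the 3 h and 7 h lists held only 51 and 25 peaks. Most other series had longer lists at these times, such as FoxM1 with 202 and 123 peaks. The low shares therefore cannot be read apart from list length. For asynchronous cells against 9 h, the 1 bp rule was met by 57 of 87 peaks (65.5%), against 74.4%, and by 56 of 70 without mitochondrial peaks. The asynchronous list holds cells of all phases, so it does not stand for any 1 of the synchronised times.

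Peaks within 100 kb of each other formed 37 clusters, of which 14 had 5 or more peaks and together held 274 peaks (86.2%). The 111 regions called at 9 h alone lay in 22 of the clusters, and 94 of them (84.7%) in those 14. The asynchronous list had peaks in 23 of them, the 3 h list in 16, the 7 h list in 9 and the 9 h list in 29.

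On chromosome 2 (chr2:92268985-92325636), a stretch of 56.7 kb whose near edge lay 0.535 kb from the centromere gap, the counts were 3, 2, 1 and 29 peaks in the order of the times. The covered bases were 1.32, 0.956, 0.252 and 12.5 kb in the same order. Of the 29 regions in this cluster, 26 were called at 9 h alone. On chromosome 16 (chr16:46388151-46435494) there were 3, 1, 0 and 21 peaks, and 19 of its 21 regions were called at 9 h alone.

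Some clusters had peaks in the 9 h list alone. On chromosome 4, the clusters chr4:49110272-49151703 and chr4:49636194-49652942 had 6 peaks each at 9 h and none in the other lists. On chromosome 18, chr18:18517138-18520337 had 4 peaks at 9 h alone and held the peak of 1020 bp at chr18:18518739-18519758, at percentile rank 85.2. On the arm of chromosome 2, chr2:89874863-89879965 also had 4 peaks, again at 9 h alone.

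Chromosome 10 differed between its clusters. The cluster chr10:42360695-42400766 had 15, 14, 7 and 13 peaks, and the covered bases were 10.2, 9.18, 2.01 and 15.4 kb. The cluster chr10:42527876-42600534 had 7, 6, 2 and 14 peaks, and 11 of its 14 regions were called at 9 h alone. The region called at 9 h alone with the highest rank, 88.7, was chr10:42380097-42380456 in the first of these clusters.

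Smaller pericentromeric clusters had peaks at most times. On chromosome 19 (chr19:27731879-27740341) the counts were 3, 3, 1 and 8, on chromosome 11 (chr11:51579439-51591325) 4, 4, 0 and 6, on chromosome 7 (chr7:61967192-61976350) 3, 2, 1 and 4, and on chromosome 6 (chr6:58776238-58779567) 4, 2, 0 and 3. Those on chromosomes 6, 11, 16, 18 and 19 all began or ended between 50.1 and 56.2 kb from the gap. Other gaps of the assembly were not entered, so a distance to the centromere gap can include some of them and need not be sequence. The median distance of a pericentromeric peak from the gap was 133, 135, 134 and 59.3 kb in the order of the times, and 192 of the 217 peaks (88.5%) lay within 500 kb. Repeats next to centromeres are shared between chromosomes, and how reads that map to several places were counted was not stated, so which copy was bound cannot be told from these positions.

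All 43 scaffold peaks lay on 3 scaffolds, which changed in different ways. The scaffold gl000226 had 7, 4, 0 and 17 peaks, and the covered bases were 1.96, 1.03, 0 and 10.6 kb. Its 17 regions were all called at 9 h, and 9 of them at 9 h alone. The scaffold chr9_gl000199_random had 1 peak in asynchronous cells and 5 at 9 h.

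The scaffold gl000220, which carries a copy of the ribosomal DNA repeat, had the opposite pattern. It had 7 peaks in asynchronous cells and 2 at 7 h, and none in the other lists. A region on chromosome 21, chr21:9826862-9827472, was called at the same times, with 1 peak of 427 bp in asynchronous cells and 2 peaks over 452 bp at 7 h. At 161032 to 161572 of gl000220 the call was wider at 7 h, 495 bp, than in asynchronous cells, 243 bp, and its rank was 70 at 7 h against 16.1. The 7 h list was thus the only one of the synchronised times with peaks in any of these 8 regions. It had calls in 2 regions of gl000220 and in the chromosome 21 region, and the others were called in asynchronous cells alone.

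On the mitochondrial genome PCNA peaks covered 72.0% of the sequence in the asynchronous list and 11.7, 13.7 and 1.60% at 3, 7 and 9 h. All 17 mitochondrial regions were called in asynchronous cells, and 7 of them in asynchronous cells alone. The 9 h peak was 265 bp wide, fell in the region from 7611 to 8165, and had percentile rank 3.55 in its list. In U2OS the PCNA peaks covered 59.9, 66.6, 48.1 and 61.0% of the mitochondrial genome in the same order. With the γ-tubulin antibody in shTUBG U2OS the values were 90.4, 14.0, 54.9 and 51.4%, so the 3 h value was low with both antibodies in this line and the 9 h value only with PCNA.

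A pair of regions near the start of chromosome 1, chr1:565028-565266 and chr1:566272-566483, were called in asynchronous cells alone. This stretch is a nuclear copy of mitochondrial sequence, and its peaks were present in the list that had the most mitochondrial peaks. The peak at 566272 had the highest rank, 64.9, of the regions called in asynchronous cells alone. Whether reads from mitochondrial DNA were placed here was not tested.

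On the arms, 3 of 18 regions were called at 3 times. These were chr3:196625516-196625882, chr5:10146-11791 and chr9:69710858-69711301, and each was missing at 7 h. The chromosome 5 region, near the end of the short arm, had 413 bp in the asynchronous list, 1631 bp at 3 h and 1646 bp at 9 h, and was the shared region whose 3 h call was widest relative to that of asynchronous cells, with a ratio of 3.95. Besides the chromosome 1 pair, the arm regions of asynchronous cells alone were chr4:167501322-167501555, chr5:17585350-17585554, chr11:10531039-10531539 and chr19:55812827-55813026. All 6 were also called for γ-tubulin in shTUBG U2OS at 1 or more times.

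The scores were compared only as percentile ranks within a list, in which 100 is the highest. In every list the regions called at all 4 times had the highest ranks, with medians over peaks of 89.7, 81.9, 66 and 97.1 in the order of the times. The peaks of regions called at 9 h alone had a median rank of 36.5 and reached 88.7. The other 9 h peaks ranked higher, with medians of 81.0, 80 and 97.1 for regions called at 2, 3 and 4 times. By kind of sequence, pericentromeric peaks had median ranks of 68.4, 64.7, 62 and 48.4 in the order of the times. Scaffold peaks had median ranks of 19.0, 19.6, 42 and 59.4, and mitochondrial peaks 52.9, 22.5, 24 and 3.55.

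Regions shared by a pair of times were ranked in a similar order. Over the 41 regions outside the mitochondrial genome called in asynchronous cells and at 9 h, Spearman's rho of the best rank per region was 0.846, over 28 regions shared with 3 h it was 0.889, and over 12 shared with 7 h it was 0.750. Between 3 h and 9 h rho was 0.781 over 30 regions, and between 7 h and 9 h 0.904 over 9. These regions share cell line, antibody and repeats, so the values are a description.

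The peaks of highest score lay in the same regions at each time. Besides chromosome 1, the next ranks were held by chr10:42596718-42600534 in asynchronous cells and at 3 h. At 7 h chromosome 7 had rank 94 and chromosome 10 rank 90, and at 9 h chromosome 10 had rank 99.0 and chromosome 7 rank 98.4.

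The regions were then looked up in the PCNA lists of U2OS, which do not carry the shRNA, and in the γ-tubulin lists of shTUBG U2OS, counting a region as found when a peak at any time overlapped it. Of the 186 regions, 123 (66.1%) were found for PCNA in U2OS, against 450 of the 943 regions (47.7%) merged in the same way within each of the 5 series other than U2OS PCNA. For γ-tubulin in shTUBG U2OS 41 (22%) were found, close to the 208 of 958 regions (21.7%) of the 5 series other than that one. Both backgrounds include the 186 regions.

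Regions called at more times were found more often for PCNA in U2OS. All 9 regions called at every time and all 24 called at 3 times were found there, as were 20 of the 23 called at 2 times. This was not particular to PCNA in U2OS. For γ-tubulin in shTUBG U2OS the shares were 13.8, 34.8, 29.2 and 88.9% of regions called at 1, 2, 3 and 4 times. The median number of other lists was 5, 14, 14 and 15. The 9 h peaks of these regions had median widths of 318, 552, 600 and 1436 bp. How far width made overlap easier was not tested. Of the 111 regions called at 9 h alone, 62 (55.9%, 46.1 to 65.3%) were found and 49 were not. None of the 111 was found for γ-tubulin in shTUBG U2OS, for which the upper bound of the interval is 3.27%. Of the 111, 90 were pericentromeric, and 9.02% of all 122 pericentromeric regions were found for γ-tubulin in shTUBG U2OS. All of the 111 except the 2 found in no other list were also called for FoxM1 in U2OS. This includes most of the 49 absent from PCNA in U2OS, such as chr4:49639457-49639690. The FoxM1 lists hold the most peaks of any series, 698 of 2442, and no share over all regions was computed for FoxM1.

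The regions of asynchronous cells alone differed from those of 9 h alone in the γ-tubulin lists of shTUBG U2OS. Of the 18, 17 (94.4%, 72.7 to 99.9%) were found for γ-tubulin in shTUBG U2OS and 8 (44.4%, 21.5 to 69.2%) for PCNA in U2OS. The interval for PCNA overlapped that of the regions of 9 h alone (46.1 to 65.3%). By kind, 7 of the 18 were mitochondrial, 5 lay on gl000220 and 6 on arms. Of all mitochondrial regions 94.1% were found for γ-tubulin in shTUBG U2OS, and of all arm regions 38.9%. Kind of sequence and time pattern were not separated here. The 8 regions of gl000220 and chromosome 21 at 9.8 Mb were found 8 of 8 times for γ-tubulin in shTUBG U2OS and 0 of 8 times for PCNA in U2OS. The 17 regions of gl000226 were the reverse, with 17 of 17 for PCNA in U2OS and 0 of 17 for γ-tubulin in shTUBG U2OS. Only 2 of the 186 regions were found in none of the other 20 lists, and both were called at 9 h alone. These were chr10:68621761-68621970, at rank 16.5, and a region of chr9_gl000199_random.

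**Figure D2:**
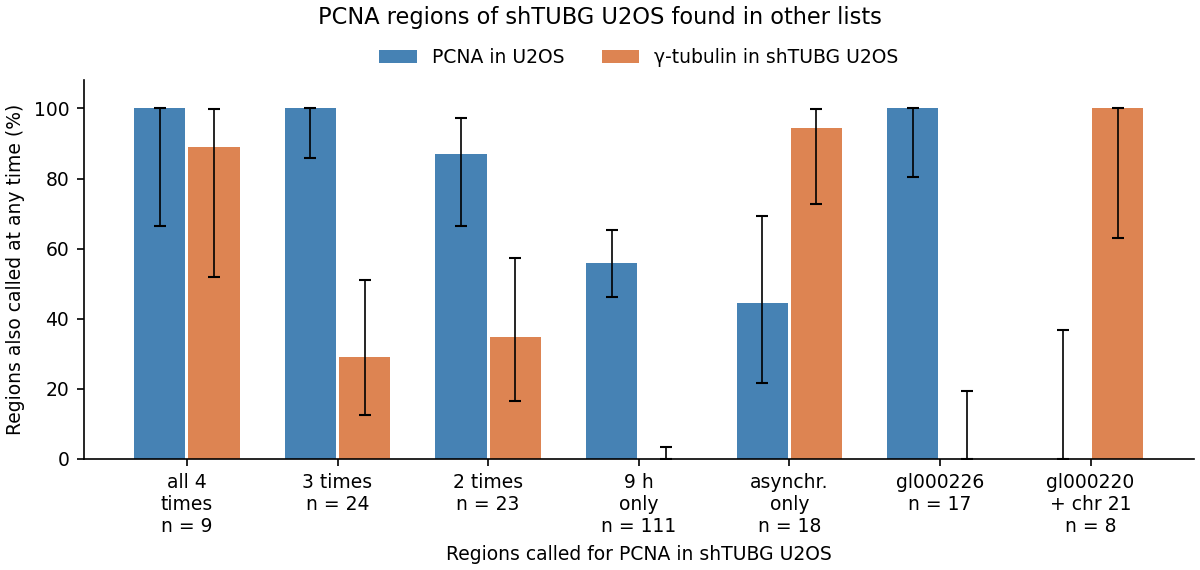
Percent of the PCNA regions of shTUBG U2OS cells that were also called for PCNA in U2OS or for γ-tubulin in shTUBG U2OS at any time, by class of region, with 95% Clopper-Pearson intervals. Regions called at 9 h alone stand at 55.9% and 0%, and those called in asynchronous cells alone at 44.4% and 94.4%.

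At the same time and by overlap of 25% of both peaks, 71.3% of the peaks of asynchronous cells, 78.4% at 3 h, 24% (9.36 to 45.1%) at 7 h and 65.2% at 9 h were found for PCNA in U2OS. For γ-tubulin in shTUBG U2OS the shares were 17.2, 5.88, 36 and 3.87%. Without mitochondrial peaks they were 10, 0, 17.6 and 3.25% for γ-tubulin, and 67.1, 79.5, 0 and 64.9% for PCNA in U2OS. The 3 h overlap with γ-tubulin was thus all mitochondrial. No share over all series was computed for the same-time values. At 7 h 9 of 25 peaks were found for γ-tubulin of the same line and 6 of 25 for PCNA of U2OS, with intervals that overlapped, and by overlap of 50% of both peaks the order turned, with 3 and 6 of 25. The 7 h PCNA list of U2OS held 17 peaks, all mitochondrial, so no other peak could be found in it.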

How the data were processed

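The authors deposited 24 lists of peaks called from ChIP-seq reads, each shared by both labelled samples of a group. The 4 PCNA lists of shTUBG U2OS were described here, and input samples were not used. Per the submitters' processing notes the tools were Bowtie2 2.1.0, SAMtools 1.7-13 and MACS2 with assembly hg19. How samples and input were combined, and how duplicate, mitochondrial and multiply mapped reads were treated, was not given in the sources used here. Each deposited peak has a position and a whole-number score of unstated meaning, which was used only as a percentile rank within its list. The lists give no read numbers, so depth is unknown, and different depths can change the number and width of peaks.

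Peaks were compared with scripts in Python 3.11.15, numpy 2.4.6 and scipy 1.17.1, and plotted with matplotlib 3.10.9. Centromere and joined heterochromatin gaps of hg19 were entered by hand and checked against the lists: 0 of 2442 peaks lay inside a gap, and the nearest was 44 bp away. This check cannot show gaps that were not entered. Regions were peaks of the 4 lists merged at 1 bp overlap, and clusters were peaks within 100 kb. The backgrounds of all 6 series of antibody and line used the same functions, which were tested on simulated lists. No sequence or gene content was analysed here, since the gene tables used are on another assembly.

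The members and lists were chosen with earlier results of these data known. Regions were named when called at all 4 times, among the 3 peaks of highest score in a list, up to 3 per time when called at that time only, or with the most peaks when called at 3 times, and clusters when they held 5 or more peaks. The rest, such as the smaller clusters on chromosomes 2 and 18, the ribosomal DNA regions and the arm regions, were named after their values were seen. Alternatives were merging within 1000 bp, chromosomes 1 to 22 and X, leaving out mitochondrial peaks, keeping peaks with at least the median score, a pericentromere of 1 or 5 Mb, overlap by 1 bp or 50%, and each time left out. Ranking anew without mitochondrial peaks was added after the data were seen.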

Additional observations from a re-analysis of the deposited data

Results flagged for a closer look

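The change in mitochondrial PCNA peaks from asynchronous cells to 9 h had opposite signs in the 2 lines. It was -16 in shTUBG U2OS (17 to 1 peak) and 2 in U2OS (22 to 24 peaks). PCNA peaks on chromosome arms changed by 1 in shTUBG U2OS (10 to 11) and by -3 in U2OS (9 to 6). Both differences rest on 1 list per line and time and were not tested.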

How the results depend on the processing

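No paired analysis was possible because the peaks carry no replicate number, since both samples of a group share 1 list, and so no fit without a replicate exists either. Of 196 alternative values for 51 results, 144 stayed within the limits set, and 52 moved beyond them. Merging within 1000 bp gave 43, 32 and 80 peaks for the asynchronous, 3 h and 9 h lists, a mitochondrial share of 2.33% in asynchronous cells, and 91 regions with 54 at 9 h alone. Of the merged 7 h peaks, 26.3% were found in the asynchronous list and 31.6% at 3 h. Chromosomes 1 to 22 and X left 55 peaks in asynchronous cells and 15 at 7 h. Peaks at or above the median score numbered 44, 26, 13 and 79 in the order of the times. With them the mitochondrial share was 3.85% at 3 h, 7.69% at 7 h and 0% at 9 h, the pericentromeric share 70.5, 96.2, 84.6 and 75.9% in the order of the times, and 57 of 93 regions were called at 9 h alone. Overlap by 1 bp found 65.5% of asynchronous peaks and 84.3% of 3 h peaks at 9 h, 94.1% of 3 h and 100% of 7 h peaks in asynchronous cells, and 56% of 7 h peaks at 9 h. Overlap by 50% found 26.4% of asynchronous and 31.4% of 3 h peaks at 9 h, 28% of 7 h and 14.8% of 9 h peaks in asynchronous cells, and 36% of 7 h and 10.3% of 9 h peaks at 3 h. Without the 9 h list there were 89 regions, 16 of them called at every time, and without the 7 h list 28 were called at every time. The cause of these moves was not tested, except that the 1 bp and 50% rules are looser and stricter by construction. Depth is unknown, and it limits every count.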

Other observations

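Peaks at 9 h in a pair of clusters were spaced at intervals of a few kb, which was noticed after the values were seen and was not tested. On chromosome 11 the midpoints of the 6 peaks were 3.29, 2.05, 2.01, 2.07 and 2.14 kb apart. Within the cluster chr10:42527876-42600534, a run of 11 peaks had a median spacing of 1.41 kb (0.357 to 1.78 kb).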
